A study of Mus musculus with 8 samples.

Results

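The proteasome genes of mouse blastocysts were followed across 3 genotypes of Isca2, which encodes a mitochondrial carrier used in building iron-sulfur clusters. Members were all protein-coding genes whose GENCODE GRCm38 symbol begins with Psma, Psmb, Psmc or Psmd and a digit, leaving out the interferon-induced pair Psmb8 and Psmb9. The rule found 38 of the 55471 gene identifiers in the files. They were 17 core genes (Psma and Psmb), 20 cap genes (Psmc and Psmd) and Psmc3ip, whose symbol meets the rule but whose product is a meiotic recombination factor, so that it was counted apart. RNA was sequenced from blastocysts at embryonic day 4.5 in 8 libraries: 3 wild-type (WT), 2 Isca2 -/- (KO) and 3 Isca2 G77S/G77S (G77S, homozygous for an amino acid substitution). Superovulated Isca2+/- females were mated with Isca2+/- males and the embryos were cultured, in all groups as far as the labels say. From which cross the G77S embryos came is not stated, nor are the number of embryos, the litter or the sex behind a library. The p-values therefore weigh genotype differences against a library-to-library spread that may be technical.

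The proteasome breaks down proteins that have been tagged with ubiquitin. Its core is a barrel of stacked rings: the alpha rings, built from Psma products, gate the entrance, and the beta rings, built from Psmb products, carry the cutting sites on the products of Psmb5, Psmb6 and Psmb7. The cap binds the ends of the barrel, where a ring of ATPases (Psmc products) unfolds the substrate and the non-ATPase subunits (most Psmd products) hold the ubiquitin receptors, the scaffold and the deubiquitinase. The products of Psmd5, Psmd9 and Psmd10 are chaperones that help to assemble the ATPase ring and then leave. Psma8, Psmb10 and Psmb11 encode core subunits restricted to testis, immune cells and thymus.

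Promoter windows from RefSeq (GRCm38.p6), 250 bases before to 50 bases after the start, were matched to 31 of the 38 genes, all but Psmc3, Psmd7, Psmb7, Psmb2, Psmb1, Psmd3 and Psma8. The windows below are cut 30 bases after the start, run 5′ to 3′, and show 6 genes that changed between genotypes in at least 1 comparison below, beside Psmb5, a catalytic gene with the antioxidant-type motif. Capitals mark matches on either strand to TGACNNNGC (the core of the antioxidant response element, bound by the NFE2 family that is known to drive proteasome genes), CCAAT (the NF-Y box) and ACTTCCG (an ETS-type motif, chosen after the sequences and the values had been seen).
Psmb4, chr3:94886929-94887208, minus strand: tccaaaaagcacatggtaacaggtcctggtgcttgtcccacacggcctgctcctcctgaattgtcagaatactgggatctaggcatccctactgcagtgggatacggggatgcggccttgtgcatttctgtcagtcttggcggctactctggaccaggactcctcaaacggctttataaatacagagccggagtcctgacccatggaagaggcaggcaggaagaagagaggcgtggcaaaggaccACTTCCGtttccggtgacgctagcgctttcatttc
Psmc1, chr12:100109952-100110231, plus strand: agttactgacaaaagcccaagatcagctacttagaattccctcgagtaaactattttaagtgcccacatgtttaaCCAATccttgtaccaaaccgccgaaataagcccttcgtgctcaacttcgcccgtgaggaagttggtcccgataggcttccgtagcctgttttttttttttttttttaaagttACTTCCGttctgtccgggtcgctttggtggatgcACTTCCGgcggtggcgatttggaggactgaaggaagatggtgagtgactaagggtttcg
Psmd12, chr11:107479278-107479557, plus strand: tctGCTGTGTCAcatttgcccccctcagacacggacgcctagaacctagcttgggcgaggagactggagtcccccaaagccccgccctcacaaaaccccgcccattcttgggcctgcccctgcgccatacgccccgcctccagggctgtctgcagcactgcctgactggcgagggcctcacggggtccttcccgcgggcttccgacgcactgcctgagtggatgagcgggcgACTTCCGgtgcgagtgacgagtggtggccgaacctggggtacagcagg
Psmd8, chr7:29180644-29180923, minus strand: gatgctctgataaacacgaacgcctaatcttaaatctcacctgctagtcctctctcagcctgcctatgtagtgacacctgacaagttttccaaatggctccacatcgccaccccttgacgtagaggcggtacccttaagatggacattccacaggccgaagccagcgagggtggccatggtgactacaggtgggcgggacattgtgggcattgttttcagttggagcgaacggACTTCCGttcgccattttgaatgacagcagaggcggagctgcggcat
Psmc5, chr11:106255935-106256214, plus strand: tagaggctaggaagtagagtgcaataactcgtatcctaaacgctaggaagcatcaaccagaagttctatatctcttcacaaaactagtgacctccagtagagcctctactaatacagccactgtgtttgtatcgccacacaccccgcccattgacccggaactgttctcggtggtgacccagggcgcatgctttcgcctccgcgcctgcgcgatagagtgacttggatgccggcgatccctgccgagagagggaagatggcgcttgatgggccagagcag
Psmd10, chrX:140956682-140956961, minus strand: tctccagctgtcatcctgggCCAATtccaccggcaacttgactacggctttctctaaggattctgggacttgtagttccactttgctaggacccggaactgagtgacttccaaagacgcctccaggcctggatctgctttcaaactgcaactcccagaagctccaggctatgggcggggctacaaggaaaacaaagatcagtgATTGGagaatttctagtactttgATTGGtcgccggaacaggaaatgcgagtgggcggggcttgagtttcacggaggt
Psmb5, chr14:54617966-54618245, minus strand: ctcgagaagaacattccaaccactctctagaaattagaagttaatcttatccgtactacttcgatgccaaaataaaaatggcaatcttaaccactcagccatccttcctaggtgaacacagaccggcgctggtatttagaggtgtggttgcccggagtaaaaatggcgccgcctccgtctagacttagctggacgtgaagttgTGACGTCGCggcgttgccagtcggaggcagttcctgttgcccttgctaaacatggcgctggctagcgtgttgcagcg
ACTTCCG stood in 9 of 18 cap windows (8 of 17 cap genes with a window) and in 3 of 14 core windows, that is 50% and 21.4%, beside 13.4% of the windows of all genes tested and 6.42% of all windows in the table. It is present in the Psmb4, Psmc1, Psmd12 and Psmd8 windows and is missing from those of Psmc5 and Psmd10, so genes with and without these letters were among those that changed. TGACNNNGC stood in 14.3% of core windows (Psmb5 and Psmb6) and 16.7% of cap windows, beside 14.2% for genes tested and 12.4% of all windows. CCAAT stood in 50% of core and 27.8% of cap windows, beside 38.6% for genes tested and 37.4% of all windows. No match overlapped a match to another of these motifs in the members' windows. A match describes the letters only.

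The libraries held 10323965 to 23842619 expected counts. Isca2 itself was at 86.9, 173 and 154 CPM (read counts scaled to library size by TMM) in WT, 4.84 and 6.20 in KO and 89.1, 105 and 133 in G77S, which fits the KO labels (KO against WT: -4.64 on the log2 scale, SE 0.41, adjusted p = 0.00387 by edgeR). The mean fragment length of the libraries was inferred from the gap between gene length and deposited effective length, as a median over long genes. It came to 181.4 to 185.1 bases in G77S, 242.7 to 275.5 in WT and 243.4 to 291.1 in KO. The G77S genotype and the shorter fragments therefore cannot be told apart. Trophectoderm markers also differed: their 10 genes summed to 5526 to 6657 CPM in G77S, 13408 to 16692 in WT and 13361 to 18069 in KO, and 5 of the 10 (Krt18, Elf5, Tspan8, Id2 and Gata2) were called lower in G77S than in WT, where 2.09% of all tested genes were. Krt8, Krt18, Tspan8 and Id2 carry most of that sum. The trophectoderm regulators in the list differed among themselves. Elf5, Gata2 and Id2, all called lower, had log2 fold changes of -4.43, -2.55 and -1.48. Eomes, Cdx2, Gata3 and Tfap2c had -0.87, 0.43, -0.04 and -0.23 and were not called. In KO against WT, 0 of the 10 markers were called, but 8 were negative, with a median of -0.71, beside -0.06 over all tested genes. There 3 were lower at an unadjusted p under 0.05, beside 6.8% of all tested genes. The lowest were Eomes (-1.6) and Tfap2c (-1.45), while Krt8 and Krt18 had 0.19 and 0.27. Epiblast markers summed to 387 to 433 CPM in WT, 420 to 505 in KO and 411 to 556 in G77S. These sums hide moves in both directions. Nanog was at 297, 266 and 221 CPM in WT, 53.4 and 27.4 in KO and 115, 66.9 and 176 in G77S. Its log2 fold changes against WT, -2.69 in KO and -1.13 in G77S, were not called. Zfp42, not called either, had means of 124 CPM in WT, 224 in KO and 237 in G77S. Of the 10 epiblast markers, 8 were positive in KO and 9 in G77S against WT, beside 46.5% and 51.6% of all tested genes. Some of these signs rest on values near the floor. Sox2 and Esrrb were at 0 in all WT libraries, and Fgf4 and Klf4 had WT means of 0.324 and 0.315 CPM. Primitive endoderm markers summed to 1137 to 1465 CPM in WT, 1039 to 1511 in KO and 576 to 1164 in G77S. Nearly all of that sum was Dab2 (mean of 1279 CPM in WT). In KO against WT, 0 of the 8 tested were called, 7 were positive, beside 46.5% of all tested genes, and Dab2 had -0.1. In G77S against WT 6 were positive, beside 51.6%, and Lama1 and Dab2 had -1.2 and -0.54. At an unadjusted p under 0.05, 6 were higher in KO and 4 in G77S, beside 6.24% and 10.3% of all tested genes. Several were near the floor: Sox17 and Sox7 were at 0 in all WT libraries. In G77S against WT, Pou5f1 and Utf1 of the 10 epiblast markers and Col4a1 of the 8 tested endoderm markers were called higher, where 1.3% of all tested genes were, and in KO against WT Utf1 was. Of the 8 cumulus and granulosa markers, 7 were at 0 in all libraries. In these bulk samples, fewer cells of a type and less RNA per cell cannot be told apart.

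In wild-type blastocysts the core genes were strongly expressed and the cap genes less so. Levels are compared between genes as TPM, which takes transcript length into account. The 14 constitutive core genes had a median of 502 TPM in WT, and the 17 cap subunit genes, without the chaperones, a median of 189 TPM. The core order in WT ran from Psmb3, a structural beta gene, at 1185 TPM to Psmb7, a catalytic gene, at 191 TPM. Psmb7 was lowest of the constitutive core genes in KO (155 TPM) and in G77S (242 TPM) as well. Psmb6, the gene of another catalytic subunit, was highest in KO (1184 TPM) and in G77S (1822 TPM).
The cap order ran from Psmd11, a scaffold subunit, at 352 TPM in WT and 299 TPM in KO, to Psmd3, another scaffold subunit, at 6.55 and 4.78 TPM. In G77S the order ran from Psmd8 at 583 TPM to Psmd3 at 31.0 TPM. The cap therefore spanned a ratio of 53.7 between highest and lowest gene in WT, 62.5 in KO and 18.8 in G77S, and the core 6.21, 7.65 and 7.54. The cap ratios rest on Psmd3 alone, which was at 14.4, 3.36 and 1.85 TPM in the WT libraries. The next lowest cap gene, Psmd1, was at 51.1 TPM in WT, 27.6 in KO and 108 in G77S. In WT the SD of log2 CPM between libraries had a median of 0.20 over the core genes and 0.12 over the cap genes, and of 0.29 over all tested genes at 100 CPM or more. WT replicate 1 stood apart for 3 cap genes: Psmd1, at 277 CPM there and 116 and 131 CPM in the other WT libraries, Psmd2, at 315 against 138 and 125, and Psmd3, at 30.9 against 8.84 and 4.91.

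**Figure D1:**
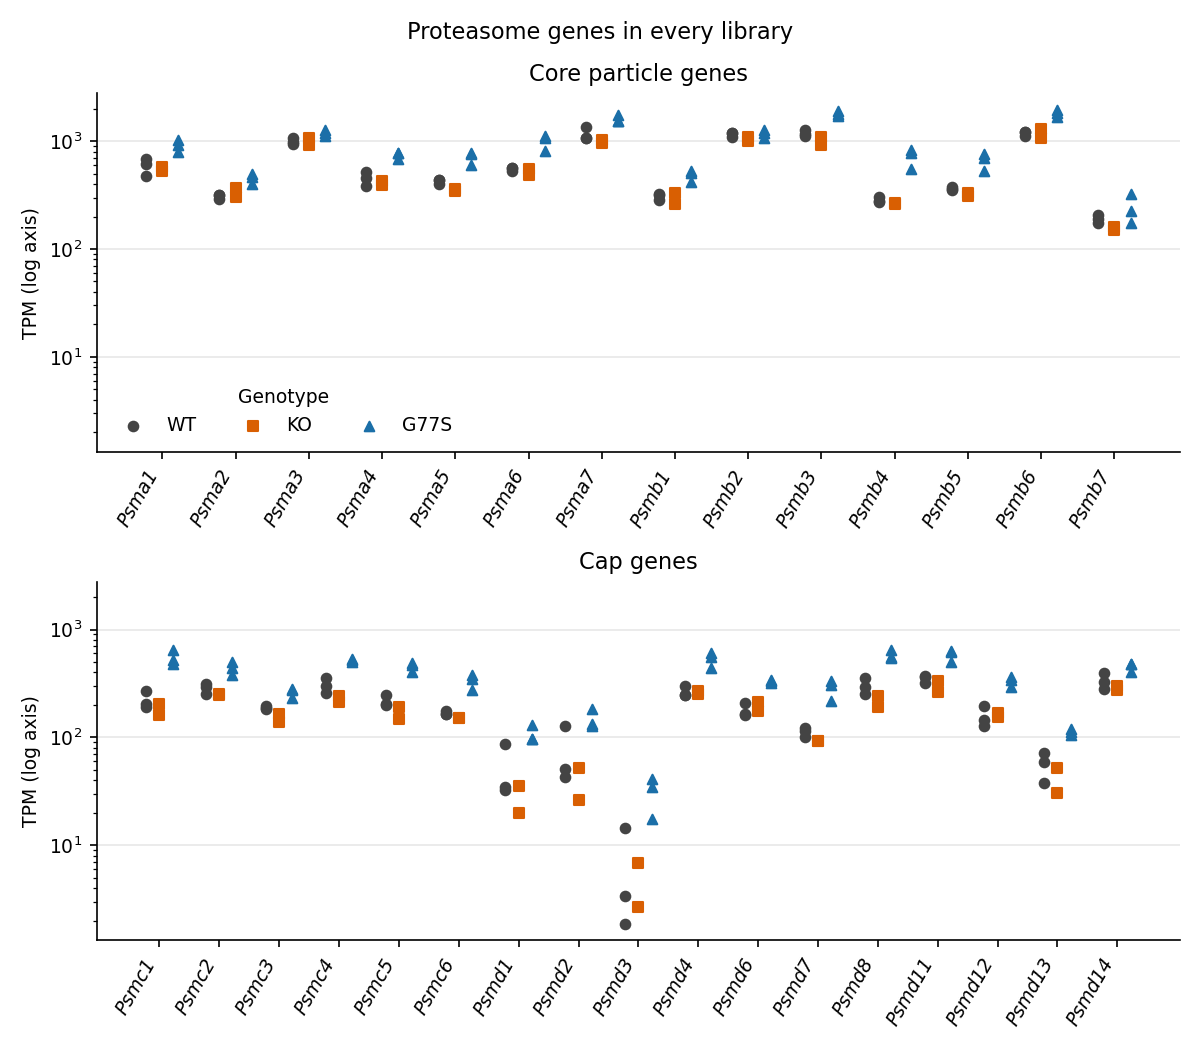
TPM of the 14 constitutive core genes (upper panel) and the 17 cap subunit genes (lower panel) on a log axis, 1 point per library, for WT (circles), KO (squares) and G77S (triangles). Psmb7 is lowest among the core genes and Psmd3 among the cap genes in every genotype by mean, and most G77S points lie above the WT points.

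The tissue-restricted genes were barely expressed. Psma8 was at 5.30, 5.16 and 9.17 CPM in WT, 7.2 and 19.0 in KO and 2.03, 7.0 and 2.34 in G77S, and the groups overlapped. Psmb10 lay between 2.13 and 9.22 CPM over all 8 libraries. Psmb11 had no count in 7 libraries and 0.434 CPM in G77S replicate 3, and it was the only member that did not pass the filter on low counts. The tested members were therefore 16 core genes, 20 cap genes and Psmc3ip, which was at 25.1 to 40.1 CPM and was called in no comparison.

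Loss of Isca2 came with no called change in any proteasome gene. In KO against WT, 0 of 16 core and 0 of 20 cap genes were called (edgeR quasi-likelihood test, adjusted p under 0.05), where 0.122% of all 13953 tested genes were called, and 0 of the 36 had an unadjusted p under 0.05. DESeq2 called 0 of them as well. By direction the background was 0.0788% higher and 0.043% lower, and at an unadjusted p under 0.05 it was 6.24% higher and 6.8% lower. A count of 0 called among 36 is near that background. The median log2 fold change was 0.11 over the core genes, with a range of -0.12 to 1.0, and -0.06 over the cap genes, with a range of -0.61 to 0.32, beside -0.06 over all tested genes. Positive values were found for 11 of 16 core and 9 of 20 cap genes, beside 46.5% of all tested genes. The core median turned to -0.13 on the TPM scale.
All 16 core genes overlapped between KO and WT libraries. Of the cap genes, 4 had both KO libraries above every WT library, 2 had both below and 14 overlapped, where 13.1% and 12.5% of all tested genes were apart in those directions. The catalytic gene Psmb5, of the chymotrypsin-like site, was at 253, 341 and 321 CPM in WT and 272 and 334 in KO. Its log2 fold change was -0.01 with a 95% interval of -0.56 to 0.53, so changes inside that interval are not excluded by these libraries. Psmb6, of the caspase-like site, was at 656, 916 and 931 CPM in WT and 782 and 1103 in KO. Psmb7, of the trypsin-like site, was at 193, 260 and 224 CPM in WT and 203 and 213 in KO. For all 3 catalytic genes the KO libraries lay among the WT libraries or overlapped them.
The largest fold change in KO was that of Psma8, at 1.0 (SE 0.69, adjusted p = 0.588 by edgeR), on the low values given above, and it moved to 0.14 without KO replicate 2 and to 1.54 without KO replicate 1. Psmd1 and Psmd2, the large scaffold subunits at the base of the cap, both had a log2 fold change of -0.61. For Psmd1, named here after its values were seen, leaving out WT replicate 1 moved this to -0.10.

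**Figure D2:**
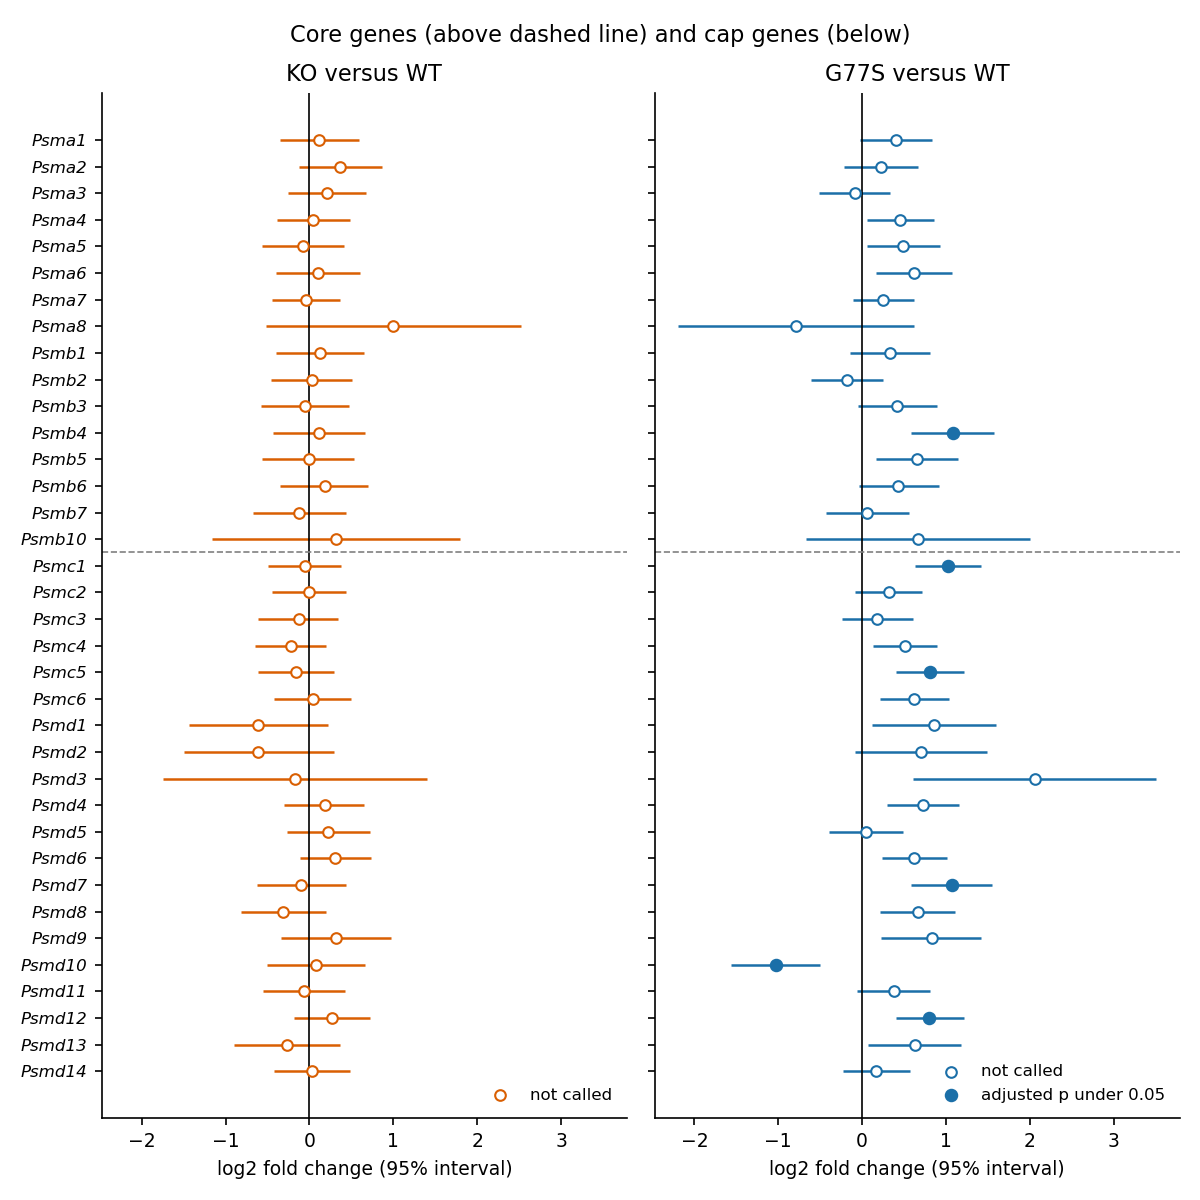
Log2 fold change (x axis) with its 95% interval for the 16 core and 20 cap genes tested, KO against WT on the left and G77S against WT on the right; filled points have an adjusted p under 0.05. In KO no point is filled, and in G77S 6 are, with Psmd10 to the left of 0 and the other 5 to the right.

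In G77S blastocysts, part of the cap and 1 core gene were higher than in wild type. Among the cap genes, Psmc1 and Psmc5, both of the ATPase ring, and Psmd7 and Psmd12, both of the non-ATPase part, rose by 0.80 to 1.07 on the log2 scale, and the assembly chaperone gene Psmd10 fell by 1.03. The structural core gene Psmb4 rose by 1.08. Thus 1 of 16 core genes was called higher, 0 lower and 15 not called, and 4 of 20 cap genes higher, 1 lower and 15 not called (edgeR quasi-likelihood test, adjusted p under 0.05). Over all tested genes 1.3% were called higher and 2.09% lower, 3.39% in all.
The members' fold changes were mostly positive. The median was 0.41 over the core genes and 0.64 over the cap genes, beside 0.03 over all tested genes, and 13 of 16 core and 19 of 20 cap genes were positive, beside 51.6% of all tested genes. In 10 of 16 core and 13 of 20 cap genes every G77S library lay above every WT library, where 17.2% of all tested genes did, and 1 cap gene, Psmd10, lay below, where 11.8% did. At an unadjusted p under 0.05 there were 5 core and 13 cap genes higher and 1 cap gene lower, beside 10.3% and 9.78% of all tested genes.
These counts of called genes rest on few libraries. They fell to 0 core and 0 cap genes without WT replicate 2, WT replicate 3, G77S replicate 1 or G77S replicate 2. In the 8 fits that left out a library, medians stayed between 0.28 and 0.50 (core) and 0.58 and 0.73 (cap). The core median of 0.28, without WT replicate 1, stood beside 0.10 over all tested genes. On the TPM scale (limma, log2(TPM + 1)) 9 core and 13 cap genes were called higher and 0 lower, but there the median of all tested genes was 0.23 and 1178 of them were called higher against 288 lower, where the main test had 182 and 291.

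**Figure D3:**
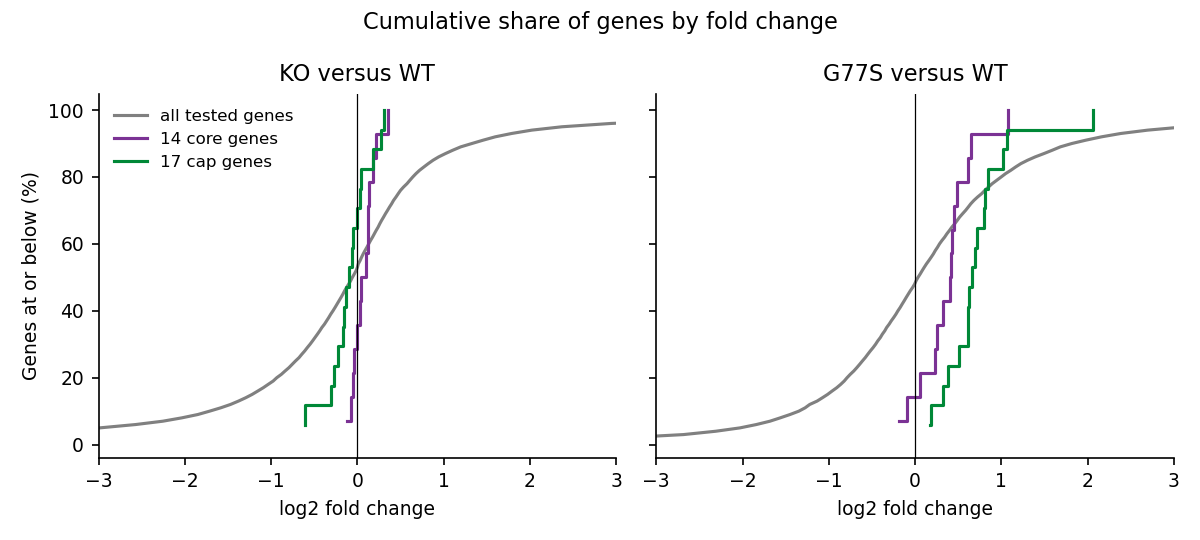
Cumulative share of genes (y axis, percent) at or below each log2 fold change (x axis) for the 14 constitutive core genes, the 17 cap subunit genes and all tested genes, KO against WT on the left and G77S against WT on the right. The range shown is cut at both ends for all tested genes. In G77S the cap curve lies wholly to the right of 0.

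Among the alpha-ring genes 0 of 7 were called in G77S, with a median log2 fold change of 0.40. Psma6 had 0.62 (SE 0.20, adjusted p = 0.119 by edgeR), and Psma3 had -0.09. Psma3 has a processed pseudogene of 100% identity over 685 aligned bases, Gm13835 (GRCm38, chr6:31141979-31142663, minus strand), which was at 3.79, 5.06 and 12.0 CPM in WT, 4.07 and 12.1 in KO and 74.4, 61.8 and 55.3 in G77S. Annotated copies took 6.43% to 7.50% of the counts of Psma3 and its copies in G77S and 0.42% to 1.14% in the other libraries, so the count of Psma3 is uncertain by that share. Adding the copies' counts to the members changed no number of called members.
Of the 4 structural beta genes, Psmb4 (chr3:94884093-94886961) was the one called. It was at 238, 304 and 340 CPM in WT, 307 and 331 in KO and 759, 619 and 485 in G77S. Every G77S library was above all WT and KO libraries. Psmb4 rose by 1.08 (SE 0.22, adjusted p = 0.0298 by edgeR, mean of 621 ± 137 against 294 ± 51.7 CPM, SD, n = 3 each).
None of the 3 catalytic genes was called. Psmb5 was at 592, 467 and 382 CPM in G77S, above all WT values given earlier, a difference of 0.65 on the log2 scale (SE 0.22, adjusted p = 0.131 by edgeR). Psmb6 was at 1302, 1059 and 1017 CPM, also above the WT libraries, with 0.43 (SE 0.22). Psmb7 was at 188, 297 and 223 CPM and overlapped WT, with 0.06 (95% interval -0.43 to 0.56).

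The 6 ATPase genes all had positive fold changes, with a median of 0.57, and 2 were called. Psmc1 (chr12:100110154-100123405) was at 395, 372 and 357 CPM in WT, 387 and 334 in KO and 791, 825 and 666 in G77S. The G77S libraries stood clear of both other groups, and Psmc1 rose by 1.02 (SE 0.18, adjusted p = 0.0144 by edgeR), the smallest adjusted p among the members. Psmc5 (chr11:106256154-106263120) was at 295, 296 and 304 CPM in WT, 288 and 246 in KO and 580, 528 and 457 in G77S. Again no G77S library overlapped, and Psmc5 rose by 0.81 (SE 0.18, adjusted p = 0.0419 by edgeR). It was called in 1 of the 8 fits that left out a library, and not with the trend over gene length and GC content removed (0.62).
Of the 11 non-ATPase genes all had positive fold changes too, with a median of 0.70, and 2 were called. Psmd7 (chr8:107580381-107588464), the partner of the deubiquitinase, was at 183, 187 and 210 CPM in WT, 173 and 189 in KO and 505, 402 and 307 in G77S, and rose by 1.07 (SE 0.22, adjusted p = 0.0281 by edgeR). Psmd12 (chr11:107479484-107504362), a scaffold subunit of the lid, was at 364, 332 and 294 CPM in WT, 397 and 396 in KO and 638, 585 and 505 in G77S, and rose by 0.80 (SE 0.18, adjusted p = 0.0432 by edgeR). In both genes the G77S libraries were higher than all others. Psmd12 too was called in 1 of the 8 fits that left out a library.
Psmd14, the gene of the deubiquitinase itself, was at 554, 487 and 543 CPM in WT, 479 and 598 in KO and 661, 579 and 543 in G77S. Its G77S and WT libraries overlapped, and its log2 fold change was 0.17 (95% interval -0.23 to 0.57).
Psmd3 had the largest fold change of any member, 2.06 (SE 0.65, adjusted p = 0.109 by edgeR), and was not called. It was at 30.9, 8.84 and 4.91 CPM in WT, 18.7 and 7.90 in KO and 87.5, 64.3 and 34.5 in G77S, so the lowest G77S library was close to WT replicate 1. Without WT replicate 1 the fold change was 3.19 and Psmd3 was called. That fit was among 8 of 20 alternatives that called it, and 12 did not. The 8 also held DESeq2, the fit with no low-count filter, the replicate block, the Y-linked term and both TPM scales.

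**Figure D4:**
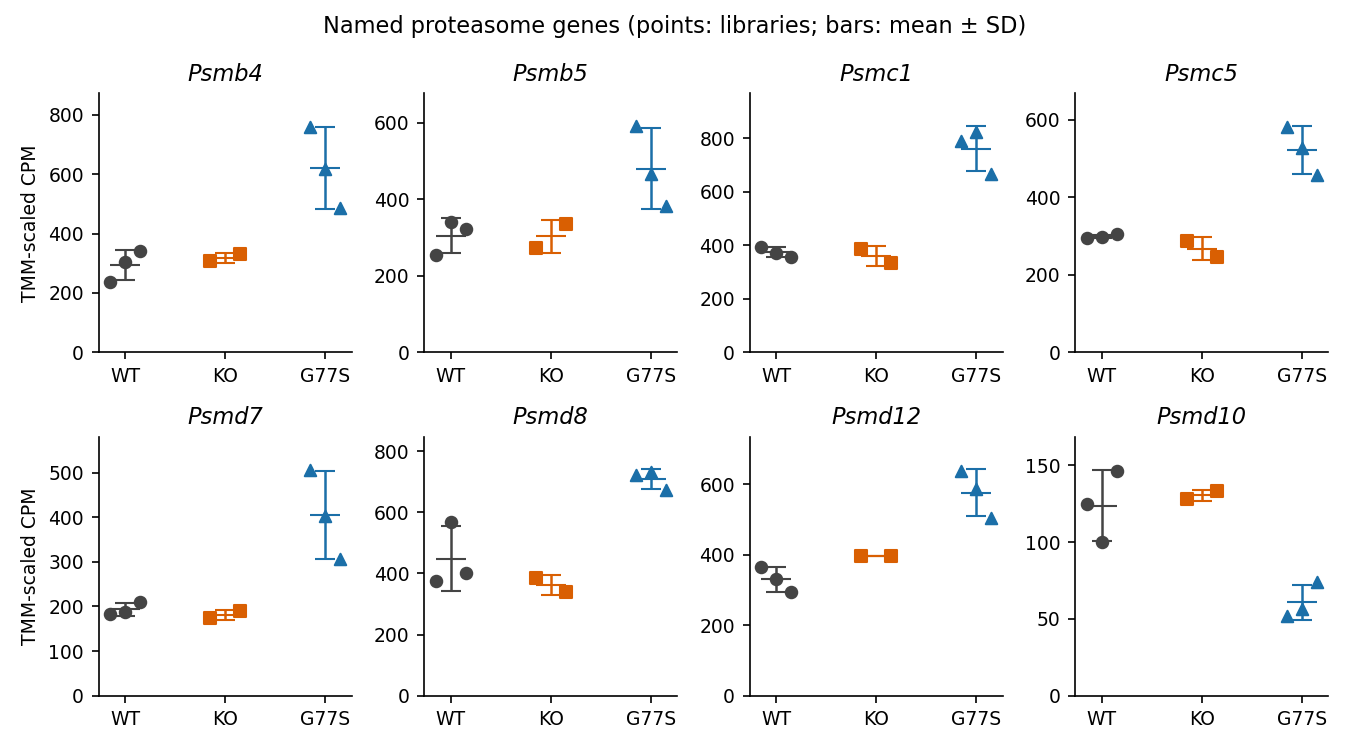
TMM-scaled CPM of 8 named proteasome genes in every library (points) with the mean and SD of each genotype (bars); each y axis starts at 0. Psmb4, Psmb5, Psmc1, Psmc5, Psmd7, Psmd8 and Psmd12 have every G77S library above the WT and KO libraries. Psmd10 has every G77S library below them.

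Of the 3 chaperone genes of the cap, 1 was called. Psmd10 (chrX:140948429-140956728), whose product is also known as gankyrin, was at 125, 100 and 146 CPM in WT, 128 and 133 in KO and 52.0, 56.4 and 73.8 in G77S. All G77S libraries were below every other library, and Psmd10 fell by 1.03 (SE 0.24, adjusted p = 0.0454 by edgeR). It is X-linked; the summed CPM of 4 Y-linked genes was 0.335 in WT replicate 1 and 0.07 in G77S replicate 1 and 215 to 418 in the other libraries, and with a term for it Psmd10 was still called in this comparison. Psmd10 was not called after the trend over length and GC content was removed (-0.75), on the TPM scale (-0.74) or in any fit that left out a library. Psmd9 had 0.83 (SE 0.27, adjusted p = 0.116 by edgeR) and Psmd5 0.05.
Shorter fragments and lower trophectoderm markers moved with these G77S values, and their part in the result was not tested.

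Summed over genes, proteasome RNA was higher in G77S on the TPM scale. The 14 constitutive core genes summed to 9328, 8918 and 9254 TPM in WT, 8021 and 8844 in KO and 14244, 14115 and 12247 in G77S. The 17 cap subunit genes summed to 3722, 3148 and 2941 TPM in WT, 2951 and 2565 in KO and 6209, 6602 and 5352 in G77S. The ratio of core to cap was 2.51, 2.83 and 3.15 in WT, 2.72 and 3.45 in KO and 2.29, 2.14 and 2.29 in G77S. On this scale the ratio was lower in every G77S library than in any other. These sums carry the scale shift of TPM described above, and neither sums nor ratio were tested. In TMM-scaled CPM the core summed to 7902, 9388 and 9978 in WT, 8692 and 10678 in KO and 12982, 11126 and 10161 in G77S. The cap summed to 5671, 5736 and 5400 in WT, 5522 and 5255 in KO and 9329, 8678 and 7468 in G77S. There the core sum of G77S replicate 3 was below that of KO replicate 2. The ratio in CPM was nearly the same in G77S replicate 1 and WT replicate 1. Across the 31 genes, the G77S log2 fold change had a Spearman rho of -0.64 with mean log2 CPM and of 0.50 with GC content, as a description over genes that share the same libraries. For the KO log2 fold change, against the same WT libraries, rho was 0.52 and -0.42. Over all tested genes rho with GC content was 0.18 in G77S and -0.09 in KO.

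**Figure D5:**
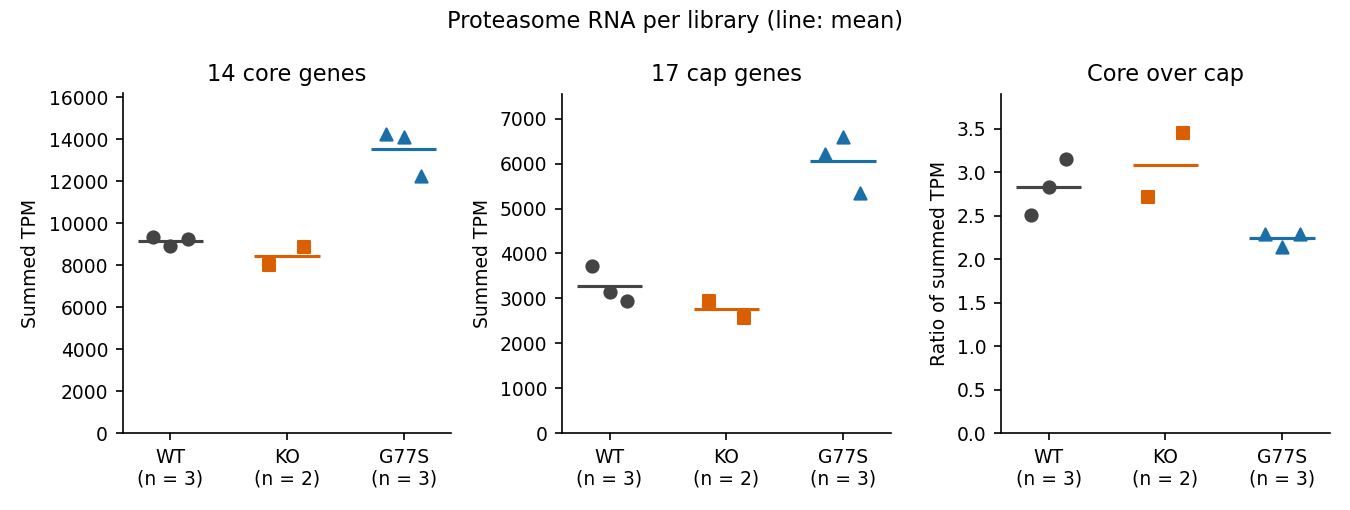
Summed TPM of the 14 constitutive core genes (left) and 17 cap subunit genes (middle) and their ratio (right), 1 point per library, with the mean of each genotype as a line; all y axes start at 0. In TPM both sums are highest in the 3 G77S libraries and the ratio is lowest there, from 2.14 to 2.29. In TMM-scaled CPM, not drawn, the core sum of G77S replicate 3 (10161) was below that of KO replicate 2 (10678).

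Set against KO, G77S had 0 of 16 core genes called, and 4 of 20 cap genes higher and 1 lower (edgeR quasi-likelihood test), beside 1.76% of all tested genes higher and 2.43% lower, 4.19% in all. DESeq2 called 1 core gene. This comparison uses the same G77S libraries as the last one. Psmc1 was higher by 1.08 (adjusted p = 0.0191), Psmc5 by 0.97 (adjusted p = 0.0295), Psmd7 by 1.16 (adjusted p = 0.0295) and Psmd8, a lid subunit, by 0.97 (adjusted p = 0.0467). Psmd8 was at 374, 569 and 402 CPM in WT, 386 and 339 in KO and 721, 733 and 672 in G77S, so all G77S libraries were above the rest. Psmd10 was lower (log2 fold change -1.1, adjusted p = 0.0430). With the Y-linked term Psmc5, Psmd7, Psmd8 and Psmd10 were no longer called (adjusted p = 0.0595, 0.061, 0.0641 and 0.0795 by edgeR). With RLE scaling Psmd8 was not called, and with the length and GC trend removed Psmd7 (0.82) and Psmd10 (-0.52) were not. The largest fold change was again that of Psmd3, at 2.23 (adjusted p = 0.136). The median was 0.29 over the core and 0.56 over the cap genes, beside 0.10 over all tested genes. Positive values were found for 12 of 16 core and 18 of 20 cap genes, beside 53.7% of all tested genes. Every G77S library lay above both KO libraries in 8 core and 17 cap genes, where 24.9% of all tested genes did, and below both in 2 core genes and 1 cap gene, where 20% did. At an unadjusted p under 0.05 there were 4 core and 12 cap genes higher and 1 of each lower, beside 11.0% and 9.74% of all tested genes. The cap calls fell to 0 without KO replicate 1, KO replicate 2, G77S replicate 1 or G77S replicate 2, and to 2 without G77S replicate 3.

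The partners of the proteasome were given by lists. In KO against WT and in G77S against WT, 0 genes were called in each of the lists of activators and inhibitor (5 genes), assembly chaperones (6 tested), other cap subunits and cap-bound enzymes (6), regulators of proteasome genes (6), ubiquitin genes (4), ubiquitin-activating enzymes (2) and substrate shuttles with the p97 extraction machinery (12). These lists held 41 tested genes, of which 1 was higher and 8 lower at an unadjusted p under 0.05 in KO, and 11 higher and 4 lower in G77S, against WT. Over all 13953 tested genes those shares were 6.24% and 6.8% in KO and 10.3% and 9.78% in G77S. DESeq2 called 2 of them lower in KO (Ddi2 and Zfand5) and in G77S 3 higher (Akirin2, Psmg3 and Txnl1) and 2 lower (Faf1 and Psme4), where it called 650 and 1538 of all tested genes. In G77S against WT their median log2 fold changes were -0.26, 0.29, 0.24, -0.52, 0.33, -0.70 and 0.35 in that order, beside 0.03 over all tested genes. The genes called in G77S against KO included Adrm1 and Psmg1. Adrm1, a ubiquitin receptor of the cap, was higher by 1.22 (adjusted p = 0.0248 by edgeR), with 366, 358 and 296 CPM in G77S against 170 and 122 in KO and 265, 195 and 210 in WT. Psmg1, a chaperone of the alpha ring, fell by 0.95 (adjusted p = 0.0467 by edgeR), with 128, 127 and 146 CPM against 228 and 289. The most abundant gene of these lists was Ubb, a polyubiquitin gene, at 6654, 9751 and 8134 CPM in WT, 5856 and 5531 in KO and 9445, 8607 and 9714 in G77S.
Of the regulators, Nfe2l1, the transcription factor that is known to raise proteasome genes when the proteasome is impaired, was at 6.94 ± 0.376 CPM in WT (SD, n = 3), 3.90 and 4.93 in KO and 4.5 ± 2.26 in G77S (n = 3), with log2 fold changes of -0.65 (SE 0.65) in KO and -0.62 (SE 0.58) in G77S against WT. Of the interferon-induced pair left out by the rule, Psmb9 was at 19.7, 15.2 and 22.8 CPM in WT, 4.61 and 4.98 in KO and 17.1, 7.28 and 9.89 in G77S, and was not called in KO (log2 fold change -2.00, SE 0.51, adjusted p = 0.156 by edgeR). Psmb8 was at 0 in 7 libraries.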

How the data were processed

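Gene tables from RSEM, 1 per library, were used as deposited; per the submitters' processing notes the tools listed were RSEM 1.3.1, STAR 2.6.1c and Trim Galore 0.4.5, besides DESeq2 1.42.1, on the mm10 (GRCm38) build, and the annotation release is not given in the sources used here. Per the file headers the tables hold expected counts and TPM, both made by the authors, and FPKM, which the authors deposited and which was not used. Gene symbols came from GENCODE vM21, which matched 99.6% of identifiers. The members, lists and tests were chosen with earlier results of these data known.

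Expected counts were rounded to whole numbers. Genes passing edgeR's filterByExpr (13953) were fitted with edgeR 4.0.16 (R 4.3.3), TMM scaling, and the quasi-likelihood test on all 8 libraries with a mean per genotype. P-values were adjusted by Benjamini-Hochberg over all tested genes, and a gene was called at an adjusted p under 0.05. The common biological coefficient of variation was 0.65. The fit gives no SE, so each SE was worked back as the absolute log2 fold change over the square root of the F statistic. The 95% intervals were built from that SE and the t distribution. Alternatives used DESeq2 1.42.0 and limma 3.58.1. Pseudogene copies were found with blastn 2.17.0 at 95% identity over at least 200 bases.

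Values in every library are given for members called in any comparison, the catalytic genes, Psmd14, Psmd10 and the member with the largest fold change in each comparison. Psmd1 and Psmd2 were named after their values were seen. Marker, partner and Y-linked lists held 16 sets in all; uterine epithelium markers summed to 0.232 to 4.85 CPM, blood and immune markers to 9.86 to 75.2 and oocyte markers to 35.6 to 142 over the libraries. One result of the partner lists is not reported here.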

Additional observations from a re-analysis of the deposited data

Results flagged for a closer look

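Cap genes were set apart where their change from WT differed between G77S and KO, which is the G77S against KO comparison itself, by edgeR's quasi-likelihood test. The G77S minus KO difference in log2 fold change was 1.08 for Psmc1, 0.97 for Psmc5, 1.16 for Psmd7, 0.97 for Psmd8 and -1.1 for Psmd10. Of the core genes 0 passed this test, where 4 were higher and 1 lower at an unadjusted p under 0.05 and DESeq2 called 1. Over all tested genes 1.76% were called higher and 2.43% lower, and 11.0% and 9.74% had an unadjusted p under 0.05.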

How the results depend on the processing

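In KO against WT no core or cap gene was called under any of the 20 alternatives. All tested genes called there, 17 in the main test, were 547 with no low-count filter, 60 at a minimum of 5 CPM, 11 with only the 2 groups compared, 650 by DESeq2, and 95 and 86 by limma on log2(TPM + 1) and log2(TPM + 0.1). The KO core median was -0.23 with the length and GC trend removed and -0.13 under both TPM settings, and the KO cap median -0.22 under both TPM settings. Small KO values that changed sign were those of Psmb5 (0.01 with RLE scaling and by DESeq2, 7.5e-05 with no filter, 0.014 with 2 groups, 0.02 with the Y-linked term), Psmb6 (-0.036 with the trend removed, -0.0015 on both TPM scales) and Psmd10 (-0.23 with the trend removed, -0.099 and -0.10 on the TPM scales).

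In G77S against WT, 473 genes were called in the main test, 1336 with no filter, 746 at 5 CPM, 1538 by DESeq2, and 1466 and 1307 on the TPM scales. Core calls, 1 in the main test, were 2 with the trend removed and 9 on both TPM scales. Cap calls, 5 in the main test, were 12 by DESeq2 and 13 on both TPM scales. The core median was 0.63 on log2(TPM + 0.1) and the cap median 0.99 on both. All tested genes had a median of 0.41 on log2(TPM + 0.1) and 0.23 on log2(TPM + 1).

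In G77S against KO, 585 genes were called in the main test, 1411 with no filter, 1009 with 2 groups, 1700 by DESeq2, and 1849 and 1744 on the TPM scales. Core calls, 0 in the main test, were 1 with no filter, at 5 CPM, with 2 groups and by DESeq2, 4 with the trend removed and 10 on both TPM scales. Cap calls, 5 in the main test, were 8 with no filter and with 2 groups, 1 with the Y-linked term, 10 by DESeq2 and 16 on both TPM scales. The core median was 0.56 with the trend removed and 0.71 on both TPM scales, and the cap median 0.72 and 1.08. The cause of these shifts was not tested.

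In their deviations from the group means, same-numbered libraries correlated at -0.0207 to 0.0712 and differently numbered ones at -0.0712 to 0.0556. With 2 or 3 libraries a group these deviations are tied to each other. The values therefore cannot decide whether the replicate numbers pair the libraries. With a replicate block, 8 genes were called in KO against WT, and in G77S against WT 0 core genes. With the replicate block and the length and GC trend removed together, KO against WT had 9 genes called, medians of -0.29 (core) and -0.22 (cap), Psmb6 at -0.059 and Psmd10 at -0.18. G77S against WT then had 2 core genes called, and G77S against KO 3 core and 3 cap genes, with medians of 0.62 and 0.78.

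Leaving out each library in turn gave 0 to 42 genes called in KO against WT, 86 to 638 in G77S against WT and 161 to 949 in G77S against KO. Core calls were 0 to 1 in both G77S comparisons, and cap calls 0 to 7 against WT and 0 to 9 against KO. In KO against WT, Psmb5 ranged from -0.16 to 0.13, Psmb6 from -0.092 to 0.41, Psmc1 from -0.16 to 0.049 and Psmd10 from -0.054 to 0.22, and in G77S against WT Psmb7 ranged from -0.12 to 0.20. Where a KO library was left out, the lone KO library was taken to vary like the other groups. Each group had 2 or 3 libraries, and all G77S libraries had short fragments. The number of called members is less firm than the sign of their medians. The G77S medians were positive under all 20 alternatives, from 0.28 to 0.63 (core) and 0.55 to 0.99 (cap) against WT. The median of all tested genes moved too, from 0.03 in the main test to 0.41 on log2(TPM + 0.1). There the core had 0.63 and the cap 0.99. Without WT replicate 1 the core had 0.28, beside 0.10 over all tested genes.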
